A study of Mus musculus with 19 samples.

Results

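The 58 genes described here belong to the solute carrier families Slc1, Slc3, Slc6, Slc7, Slc36, Slc38 and Slc43, which hold most carriers of amino acids. Some members carry other substrates, such as dopamine (Slc6a3) or creatine (Slc6a8), and those of Slc3 are heavy subunits that bind the Slc7 carriers. For brevity all are called carriers here. They were chosen by gene symbol, as every symbol of these 7 families in the RefSeq tables that ends in a number, except Slc38a4, so that symbols with a letter at the end are left out, and so make up 58 of 23337 gene symbols and 89 transcript rows. For each symbol the transcript with the highest mean count stands for the gene.

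Their expression was followed by RNA-seq in 11 mouse libraries. Visceral yolk sac endoderm (ysE), the epithelium that covers the yolk sac and faces the uterus, was collected from FVB embryos at E9.25 in 2 libraries and at E12.5 in 1 library. The mesoderm layer of the visceral yolk sac (VYS), collected with its vessels and basement membrane, came from FVB embryos at E9.25 in 2 libraries, and fetal liver from FVB embryos at E12.5 in 2 libraries. Cystic embryoid bodies (cystic EBs), fluid-filled aggregates differentiated from ES cells and surrounded by an endoderm-like layer, were made from the C57Bl/6x129 ES cell clones A9 (replicate A) and JN (replicate B) and sampled at 10 and 15 days (d10, d15), giving 4 libraries. No group carried a mutation or a drug treatment. Each tissue library pooled a whole litter, and each EB replicate is 1 clone. DNA methylation was measured by bisulfite sequencing in E12.5 ysE, E12.5 liver and d15 cystic EBs, 2 libraries each, from both reciprocal crosses of CAST and FVB mice or from ES cells of these crosses, so the EBs of the bisulfite data are not those of the RNA-seq. H3K4me3 was measured in 1 library of intact E12.5 VYS from FVB mice, both layers included. Nothing in the labels says how far the EB libraries of 1 clone are independent. The difference between replicates A and B at d10 correlated at 0.64 with that at d15 across transcripts. In the tests between tissues the 4 EB libraries entered as 4 replicates, and the spread was estimated over all 5 groups together. Such p-values therefore speak for these libraries and not for further ES cell clones.

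Total counts ran from 40453779 in E12.5 ysE to 169981821 in E9.25 ysE replicate B. Libraries of E9.25 ysE, mesoderm and EB clone JN were made with a dUTP strand-specific protocol, liver and EB clone A9 with a ScriptSeq kit, and the E12.5 ysE library without strand information. In comparisons with E12.5 ysE the protocol and the tissue cannot be told apart, and among the EBs the clone and the protocol cannot be told apart. The labels were checked against marker lists. Summed over 7 of 7 yolk sac endoderm markers, the level was 10410 to 11590 RPKM in E9.25 ysE and 43200 in E12.5 ysE, while liver had 1638 to 2959, mesoderm 1138 to 2031 and the EBs 157.7 to 1293, with no marker of the list at 0. The 5 erythroid markers summed to 243.8 to 259 RPKM in mesoderm and 239 to 482.3 in liver and to at most 8.17 elsewhere. The 5 hepatocyte markers summed to 508 to 1084 in liver but to 1745 in E12.5 ysE, so this sum did not mark liver. It was 285.3 to 343 in E9.25 ysE, 15.6 to 33.4 in mesoderm and 7.01 to 66.4 in EBs. Fgb (1508 against 99.8 and 193.6 in liver) and Ahsg were higher in E12.5 ysE, and Alb (80.5 against 357.5 and 766.6) was higher in liver. Among the cystic EBs, 4 pluripotency markers summed to 79.1 to 317.4 RPKM, against at most 6.09 in every tissue library, and 6 neural markers to 10.7 to 27.2, against at most 2.58. In these bulk samples fewer cells of a type and less RNA per cell cannot be told apart.

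Amino acid carriers move single amino acids across the plasma membrane or out of lysosomes. Members of Slc7 that are light subunits reach the membrane only together with a heavy subunit, Slc3a2 for most of them and Slc3a1 for Slc7a9, and the Slc3a1 and Slc7a9 pair is best known for taking up cystine and dibasic amino acids in kidney and intestine. Before the placenta is established the yolk sac endoderm takes up maternal protein from the uterine lumen, digests it in lysosomes and passes amino acids on to the embryo.

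The summed level of carrier transcripts was highest in ysE. Expressed as RPKM, reads per kilobase of transcript scaled to the size of the library, the summed level of the 58 genes was 310.4 and 359.8 in E9.25 ysE (replicates A and B), 358.6 in E12.5 ysE, 181.6 to 218.6 in the 4 cystic EB libraries, 216.3 and 243.5 in mesoderm and 132.5 and 161.5 in liver. In summed RPKM the ysE libraries lay above all others and the liver libraries below all others. The median over the carriers was instead lowest in ysE, at 0.38 RPKM at E9.25 and 0.39 at E12.5. It was 0.59 in mesoderm, 0.65 in liver and 0.71 in cystic EBs. Carriers under 0.1 RPKM numbered 24 in E12.5 ysE, 15 in cystic EBs and 18 in each other group. The library size behind the RPKM was not proportional to the summed counts: relative to E12.5 ysE, its ratio to the summed counts was 1.34 and 1.21 in liver, 1.05 to 1.14 in cystic EBs and 0.989 to 1.05 in E9.25 ysE and mesoderm. The order of liver and EBs is therefore given for RPKM alone. Of the 58 genes, 37 reached 1 RPKM as the mean of at least 1 group and 21 stayed under 1 in every group, among them Slc1a2, Slc6a11, Slc7a11 and Slc7a14. Group means were highest in E12.5 ysE for 12 of the 37, in E9.25 ysE for 9, in mesoderm and in cystic EBs for 6 each, and in liver for 4. This split was not computed for all genes, and ysE enters it with both stages. The 5 most abundant carriers held 63.6% of the summed level in E9.25 ysE, 50.04% in E12.5 ysE, 50.02% in cystic EBs, 48.4% in mesoderm and 47.8% in liver. These 5 were Slc7a9, Slc3a2, Slc38a6, Slc7a7 and Slc38a10 in E9.25 ysE, Slc7a9, Slc3a2, Slc6a13, Slc7a7 and Slc38a6 in E12.5 ysE, and Slc43a3, Slc38a2, Slc38a10, Slc3a2 and Slc43a1 in mesoderm. Genes with 1 RPKM or more in all 5 groups numbered 13, and Slc38a10, a widely expressed Slc38 member, spanned the least among them, from 11.9 in cystic EBs to 22.4 in E12.5 ysE.

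**Figure D1:**
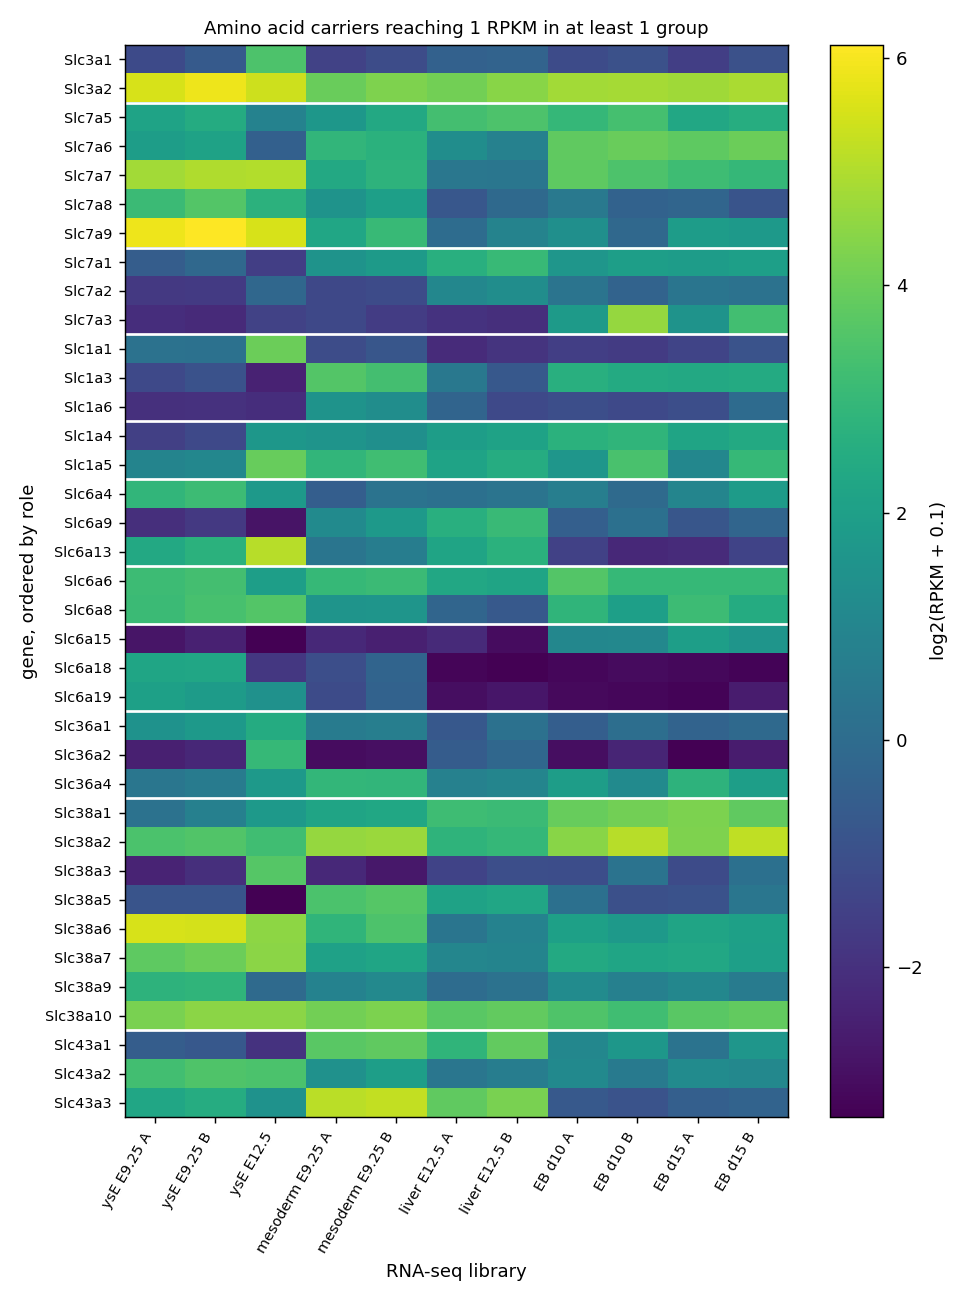
Each row is 1 of the 37 carriers that reached 1 RPKM in at least 1 group, each column 1 of the 11 RNA-seq libraries, and the colour gives log2(RPKM + 0.1); white lines part the genes by role, in the order heavy subunits, light subunits, cationic carriers, glutamate carriers, neutral Slc1 exchangers, Slc6 carriers in 3 groups, Slc36, Slc38 and Slc43. Slc3a2, Slc7a7, Slc7a9 and Slc38a6 are bright in all 3 ysE columns, Slc6a13 (34.6 RPKM) in that of E12.5, and Slc43a3 is brightest in mesoderm.

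The heavy subunits differed in when they appeared. Slc3a2 (NM_008577, chr19:8706882-8723369), the partner of most light subunits, stood at 46.8 and 58.9 RPKM in E9.25 ysE, 42.7 in E12.5 ysE, 28.2 and 28.6 in d10 EBs, 27.0 and 29.95 in d15 EBs, 15.6 and 19.3 in mesoderm, and 17.0 and 21.5 in liver. It was among the most abundant carriers in every group, and no ysE value overlapped with another tissue. Slc3a1 (NM_009205, chr17:85028347-85064241) was at 0.338 and 0.537 RPKM in E9.25 ysE and at 11.1 in E12.5 ysE. In the other 8 libraries it lay between 0.235 and 0.705. Slc3a1 was thus above 1 RPKM in a single library, the one of E12.5 ysE. Prepl, which overlaps Slc3a1, was at 5.07 RPKM in that library and at 2.56 and 2.99 in E9.25 ysE. The E12.5 ysE library holds no strand information, so its reads cannot have been counted by strand. Whether those of the other libraries were is not stated in the sources used here. The part of overlapping genes in these values was not tested.

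Slc7a9 (NM_001199015, chr7:35448727-35466034), the light partner of Slc3a1, was already the most abundant carrier at E9.25. Its level was 58.3 and 69.5 RPKM in E9.25 ysE, 47.1 in E12.5 ysE, 0.814 to 3.65 in cystic EBs, 4.68 and 8.16 in mesoderm, and 0.905 and 1.78 in liver. No library of another tissue came near the ysE values. The ratio of Slc7a9 to Slc3a1 RPKM was 172.4 and 129.4 in the E9.25 ysE libraries and 4.23 in the E12.5 ysE library. For Slc3a2 the 6 light partners Slc7a5, Slc7a6, Slc7a7, Slc7a8, Slc7a10 and Slc7a11 were summed. Their sum divided by Slc3a2 was 0.921 and 0.956 in E9.25 ysE, 0.972 in E12.5 ysE, 1.03 to 1.36 in cystic EBs, 1.21 and 1.18 in mesoderm, and 0.825 and 0.701 in liver. The leading partner differed between the tissues. It was Slc7a7, which exports cationic amino acids, in ysE, Slc7a5, a carrier of large neutral amino acids, in liver, Slc7a6, a close relative of Slc7a7, in cystic EBs, and Slc7a6 in 1 and Slc7a7 in the other mesoderm library.

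**Figure D2:**
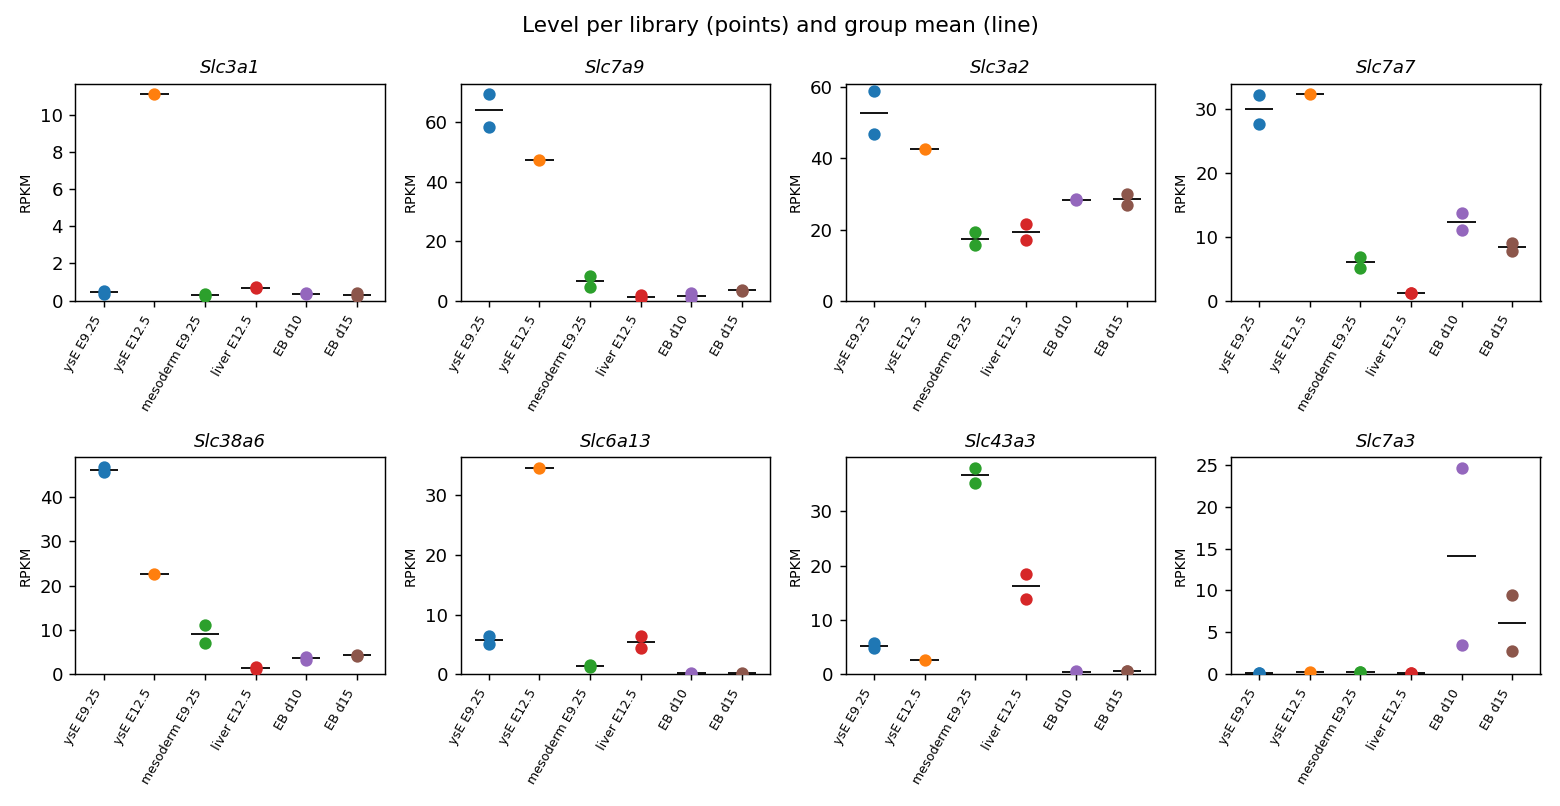
RPKM (linear axis from 0) of 8 carriers in ysE at E9.25 and E12.5, mesoderm, liver and cystic EBs at d10 and d15; points are libraries and lines are group means. Slc3a1 reaches 11.1 in E12.5 ysE and stays under 1 elsewhere, Slc7a9 and Slc38a6 are highest in E9.25 ysE, Slc43a3 is highest in mesoderm, and Slc7a3 is at 3.48 and 24.6 in the 2 d10 EB libraries.

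Promoter sequences were available from RefSeq (GRCm38.p6, the assembly of mm10) for 40 of the 58 genes, as 250 bases before and 50 after the most upstream start listed. The promoters of 5 genes are printed, carriers on which the results turn, in the 5′ to 3′ direction of the gene, namely Slc3a1 (chr17:85028097-85028396, plus strand), Slc7a9 (chr7:35448842-35449141, plus strand), Slc7a7 (chr14:54417895-54418194, minus strand), Slc7a11 (chr3:50443564-50443863, minus strand) and Slc38a6 (chr12:73286598-73286897, plus strand). Capitals mark matches to a motif searched on both strands: the element bound by the amino acid stress factor Atf4 (TGATGNAA), the endoderm factor Hnf4 (CAAAGTCCA) and the blood factor Gata1 (AGATAAG). The full palindromic site of the endoderm factor Hnf1 was searched as well.
Slc3a1: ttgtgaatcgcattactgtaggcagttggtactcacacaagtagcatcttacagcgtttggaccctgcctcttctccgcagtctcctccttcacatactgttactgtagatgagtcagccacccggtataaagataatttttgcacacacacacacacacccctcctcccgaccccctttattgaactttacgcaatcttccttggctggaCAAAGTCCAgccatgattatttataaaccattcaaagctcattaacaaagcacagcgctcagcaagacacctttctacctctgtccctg
Slc7a9: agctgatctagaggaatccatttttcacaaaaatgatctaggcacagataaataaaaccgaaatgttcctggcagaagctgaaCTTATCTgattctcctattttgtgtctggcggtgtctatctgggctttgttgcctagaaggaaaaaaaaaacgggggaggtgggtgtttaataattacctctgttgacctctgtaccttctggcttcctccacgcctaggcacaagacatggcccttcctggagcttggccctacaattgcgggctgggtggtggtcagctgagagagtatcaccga
Slc7a7: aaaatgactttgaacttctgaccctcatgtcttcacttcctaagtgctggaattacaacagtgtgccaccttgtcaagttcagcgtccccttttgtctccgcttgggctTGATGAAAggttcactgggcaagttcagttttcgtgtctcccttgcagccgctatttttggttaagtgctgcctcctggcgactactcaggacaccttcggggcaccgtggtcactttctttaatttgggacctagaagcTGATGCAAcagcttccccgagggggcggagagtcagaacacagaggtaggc
Slc7a11: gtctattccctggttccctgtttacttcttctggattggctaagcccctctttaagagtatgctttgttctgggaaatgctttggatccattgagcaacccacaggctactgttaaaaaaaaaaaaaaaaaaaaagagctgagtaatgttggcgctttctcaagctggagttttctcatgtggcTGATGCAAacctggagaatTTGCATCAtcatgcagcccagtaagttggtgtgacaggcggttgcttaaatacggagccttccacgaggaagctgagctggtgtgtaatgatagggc
Slc38a6: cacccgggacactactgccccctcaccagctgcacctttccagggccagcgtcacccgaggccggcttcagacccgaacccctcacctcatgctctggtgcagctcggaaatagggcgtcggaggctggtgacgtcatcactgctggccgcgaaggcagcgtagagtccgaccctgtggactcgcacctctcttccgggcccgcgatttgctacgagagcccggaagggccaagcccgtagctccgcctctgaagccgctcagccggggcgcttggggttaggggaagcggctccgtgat
The Hnf4 letters were found in Slc3a1 alone among the 40 promoters, 39 to 31 bases before the start, and in 0.417% of 17491 promoters of protein-coding genes. The Atf4 element was in 3 of 40, Slc1a4, Slc7a7 and Slc7a11 (7.5%), and in 3.68% of all. Both Slc7a7 and Slc7a11 held it 2 times. The Gata1 letters were in Slc7a9 (1 of 40) and in 2.63% of all promoters, and the full Hnf1 site was in 0 of the 17491. The Slc38a6 promoter held no match and 26 CG dinucleotides, against 7 in Slc3a1 and 6 in Slc7a9. A match is a description of these letters and no measured site.

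H3K4me3 is a histone mark of active promoters. A peak lay within 1 kb of the start of 24 of the 40 carriers (60%, 95% Wilson interval 44.6% to 73.7%, counting error only) and of 59.2% of 17491 protein-coding genes. A peak in the upper 50% by score lay at 18 of the 40 carriers (45%), against 47.8% of all genes. A peak at the highest score of the peak caller, 3100, lay at 9 carriers, Slc1a3, Slc3a2, Slc7a8, Slc7a9, Slc36a1, Slc38a2, Slc38a6, Slc38a7 and Slc43a2. The share of all genes with this score was not computed, so the count is no trait of the carriers. Slc3a1 had a peak with a score of 556.8 over 1581 bases. Carriers with a peak had a median level of 4.37 RPKM in E12.5 ysE, and those without one 0.0065. Of the 16 carriers without a peak at this start, 3 reached 1 RPKM in ysE or mesoderm, namely Slc7a7 (32.4 in E12.5 ysE), Slc38a5 and Slc6a19, and Slc7a7 had a peak at another of its 5 listed starts. The 24 promoters with a peak held a median of 20 CG dinucleotides in 300 bases and the 16 without one 8, against 13 in all genes.

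Promoter methylation of the carriers was lowest in ysE. Within 1 kb of the start, over carriers with at least 5 reads in the library, the median was 18.5% and 25% in the 2 ysE libraries (26 and 21 carriers, 21.7 ± 4.62% SD, n = 2), 34.5% and 42.9% in liver (22 and 25 carriers, 38.7 ± 5.89%) and 70.1% and 63.1% in cystic EBs (24 and 22 carriers, 66.6 ± 4.97%). The tissues did not overlap. Medians over all genes ran in the same order, 30.5 ± 1.53% for ysE, then 47.2 ± 3.93% for liver and 57.6 ± 3.38% for the EBs. With 2 libraries a tissue an exact permutation test cannot go below 0.333, so no test was made. The sets of carriers with reads differed between libraries. Carriers on chromosomes 13, 19 and X had no values in any library. Those on chromosome 15, Slc1a3 and Slc38a2, had values in ysE and EBs but none in liver. Over the 7 carriers with at least 5 reads in all 6 libraries the medians were 21.6%, 62.8% and 80.3%. Within 500 bases of the start the ysE and liver medians were 16.9% and 16.5% and no longer in this order.

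Single promoters rested on few reads. Slc7a9 was methylated at 0% of 8 and 8.33% of 12 reads in ysE, 60% of 10 and 28.6% of 7 in cystic EBs, and 20% of 5 and 50% of 14 in liver. Slc7a8, a carrier of neutral amino acids, was methylated in 0% of 31 reads in the first and in 1 of 8 reads in the second ysE library, while the liver libraries gave 35.7% of 14 and 32.4% of 37 reads and the EB libraries 66.7% of 15 and 69.6% of 23. Both were lower in each ysE library than in any library of liver or EBs. The Slc3a1 promoter was at 42.9% of 14 and 62.5% of 8 reads in ysE, 83.3% of 18 and 100% of 14 in cystic EBs, and 97.4% of 39 and 91.7% of 24 in liver, so it was partly methylated in the tissue where the gene was highest and nearly fully methylated in the others.

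**Figure D3:**
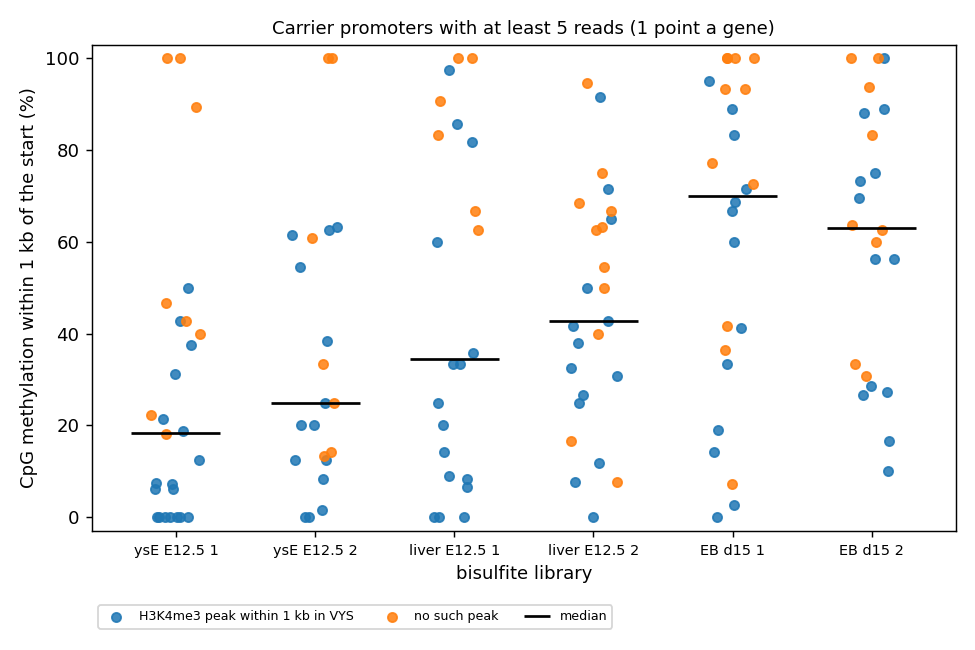
Percent CpG methylation within 1 kb of the start for each carrier with at least 5 reads, in each of the 6 bisulfite libraries; blue points are genes with an H3K4me3 peak within 1 kb in VYS, orange points genes without one, and black lines medians. The medians rise from 18.5% and 25% for ysE over 34.5% and 42.9% for liver to 70.1% and 63.1% for the EBs.

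Comparing E9.25 ysE with VYS mesoderm of the same stage asks which carriers belong to the endoderm layer. Of the 58 carriers, 55 passed the filter on low counts, and 15 of these were higher and 12 lower in ysE at a false discovery rate of 5% (edgeR, quasi-likelihood test, p-values adjusted by Benjamini-Hochberg across all transcripts). Among all genes 13.7% were higher and 16.2% lower in ysE. The median log2 fold change of the carriers was -0.27, that of all genes -0.05. The carriers higher in ysE were Slc3a2, 3 light subunits, Slc1a1, Slc6a4, Slc6a8, Slc6a13, Slc6a18, Slc6a19, Slc36a1, Slc38a6, Slc38a7, Slc38a9 and Slc43a2. The carriers lower in ysE were Slc1a3, Slc1a4, Slc1a6, Slc6a3, Slc6a9, Slc7a1, Slc7a11, Slc36a4, Slc38a1, Slc38a5, Slc43a1 and Slc43a3.

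Slc7a9 had the largest difference towards ysE, 12.3-fold (log2 3.63 ± 0.66 SE, adjusted p = 0.003 in edgeR's test). Slc6a4, the serotonin carrier, was at 7.4 and 8.7 RPKM in ysE and 0.606 and 1.12 in mesoderm (11.6-fold, adjusted p = 0.0021). The neutral amino acid carrier Slc6a18 was at 4.58 and 4.66 RPKM in ysE and at 0.382 and 0.731 in mesoderm (10.3-fold, adjusted p = 0.0035). Its neighbour on chromosome 13, Slc6a19, which takes up neutral amino acids at brush borders, was higher by 9.08-fold (adjusted p = 0.0083). Tmem27, which brings Slc6a19 to the membrane in kidney, was at 3.74 and 2.49 RPKM in ysE and 0.11 and 0.385 in mesoderm, a log2 difference of 3.95 ± 1.24 SE (adjusted p = 0.037). Slc38a6, a member of the glutamine carrier family, stood at 46.6 and 45.5 RPKM in ysE and 7.08 and 11.2 in mesoderm, 6.26-fold apart (adjusted p = 3.8e-04). Slc7a7 was 6.22-fold higher (adjusted p = 4.2e-04), Slc43a2, a carrier of large neutral amino acids, 4.02-fold, and Slc3a2 3.77-fold. The lysosomal carriers Slc38a7 and Slc38a9 were 4.23-fold and 4.53-fold higher in ysE.

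Toward mesoderm, the glutamate carrier Slc1a3 differed most. It was at 0.321 and 0.422 RPKM in ysE and 12.1 and 9.62 in mesoderm, 23.4-fold lower in ysE (log2 -4.55 ± 0.43 SE, adjusted p = 2.1e-04 in edgeR's test). Slc38a5, a glutamine and glycine carrier, was at 0.452 and 0.448 RPKM in ysE and 10.7 and 12.4 in mesoderm (20.6-fold lower, adjusted p = 6.1e-04). Slc43a1, another carrier of large neutral amino acids, was 19.9-fold lower in ysE, Slc1a6 13.6-fold and Slc6a9, the glycine carrier that red cell precursors use, 13.0-fold. Slc43a3, which takes up purine bases, was the most abundant carrier of mesoderm at 35.2 and 38.02 RPKM and 5.61-fold lower in ysE (adjusted p = 3.3e-04). The cystine and glutamate exchanger Slc7a11 was 10.2-fold lower in ysE at 0.292 and 0.255 RPKM in mesoderm, and this call was lost when either ysE library was left out (adjusted p up to 0.077). Leaving out mesoderm replicate A cost the calls of Slc1a1 (0.073) and Slc6a19 (0.084), leaving out that library or ysE replicate B the call of Slc7a8 (up to 0.12), leaving out ysE replicate A the call of Slc36a4 (0.060), and leaving out either ysE library or mesoderm replicate B that of Slc6a3 (up to 0.12). The call of Slc36a1 was lost without any 1 of the 4 libraries (adjusted p up to 0.14).

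The mesoderm libraries held RNA of endoderm markers, 1138 RPKM in replicate A and 2031 in replicate B. Slc7a9 was at 4.68 and 8.16 RPKM and Slc38a6 at 7.08 and 11.2 in these libraries, and the sum of all carriers at 216.3 and 243.5. The 5 erythroid markers summed to 243.8 to 259 RPKM in mesoderm against 7.58 to 8.17 in ysE, 4 macrophage markers to 60.9 to 61.6 against 3.25 to 3.82, and 5 measured endothelium and mesoderm markers to 317.4 to 332.3 against 12.7 to 22.5. Mrc1 held most of the macrophage sum in mesoderm, and each of the 4 macrophage markers was higher in mesoderm. None of the markers of these lists was at 0 in either tissue, and their part in the carrier differences was not tested. Of 15 carriers followed through all comparisons, 6 did not pass here, Slc1a5, Slc3a1, Slc6a6, Slc7a3, Slc7a5 and Slc38a2, with adjusted p-values of 0.052 to 0.57.

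**Figure D4:**
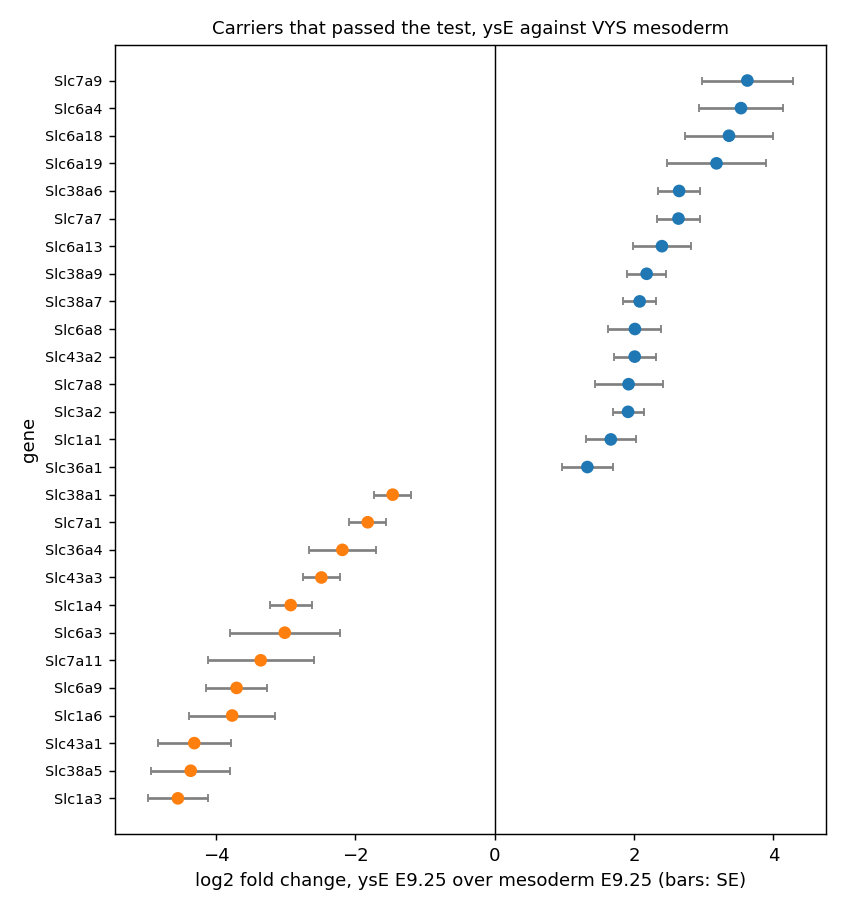
Log2 fold change (E9.25 ysE over mesoderm, x axis) of the 27 carriers that passed edgeR's test at a false discovery rate of 5%, with bars of 1 SE; blue points are the 15 higher and orange points the 12 lower in ysE. Values run from -4.55 for Slc1a3 to 3.63 for Slc7a9.

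Between E9.25 and E12.5 the carriers of ysE changed in both directions. Of the 55 tested, 9 were higher and 7 lower at E12.5, where 3.84% of all genes were higher and 4.47% lower by the same test. With another scaling of the libraries the median of all genes moved by 0.16 on the log2 scale, from -0.22 to -0.05, and the share of higher among all genes called moved from 46.2% to 58.2%. The median of the carriers was -0.71 with the first scaling. A single library stands for E12.5, prepared with another protocol, so its spread was taken to be that of the other groups.

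Higher at E12.5 were the heavy subunit Slc3a1, the neutral exchangers Slc1a4 and Slc1a5, the glutamate carrier Slc1a1, the cationic carrier Slc7a2, Slc6a13, Slc36a2, Slc38a1 and Slc38a3. Slc3a1 rose 24.0-fold (log2 4.58 ± 0.45 SE, adjusted p = 0.0013 in edgeR's test). Slc38a3, a glutamine carrier best known from liver and kidney, was at 0.093 and 0.139 RPKM at E9.25 and 12.2 at E12.5 (98.2-fold, adjusted p = 0.0026). For Slc36a2, a proton-coupled carrier of proline and glycine, the levels were 0.079 and 0.108 RPKM and then 7.95 (79.5-fold, adjusted p = 0.0093). These genes were at low levels at E9.25 and well expressed at E12.5. Slc1a1 went from 1.08 and 1.04 RPKM to 15.7 (13.9-fold, adjusted p = 0.0021), and Slc1a4 from 0.243 and 0.323 to 3.07 (10.2-fold, adjusted p = 0.0013). Slc6a13, a carrier of GABA and taurine, was at 5.05 and 6.39 RPKM at E9.25 and 34.6 at E12.5 (5.71-fold, adjusted p = 0.014). Slc1a5, a glutamine exchanger, was 7.52-fold higher (adjusted p = 0.045).

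Among the 7 that were lower at E12.5, Slc6a18 fell from 4.58 and 4.66 RPKM to 0.188 (25.98-fold, adjusted p = 0.017), while its neighbour Slc6a19 was at 4.04 and 3.5 and then 2.62 RPKM, a log2 difference of -0.61 ± 0.82 SE that did not pass (adjusted p = 0.69). The lysosomal arginine sensor Slc38a9 fell from 6.78 and 7.19 to 0.853 RPKM (8.67-fold, adjusted p = 0.0029) and Slc7a6 from 3.76 and 4.2 to 0.647 (6.52-fold, adjusted p = 0.0026). Slc38a5 had 249 counts at E9.25 and 0 at E12.5 and was at least 12.05-fold lower, counted against a floor of 3 counts in the E12.5 library. Slc1a3, Slc6a6 and Slc7a1 were 4.45-fold, 2.52-fold and 3.12-fold lower. Of the 5 most abundant carriers at E12.5, Slc6a13 was called, while Slc7a9, Slc3a2, Slc7a7 and Slc38a6 did not pass the test: Slc7a9 differed by log2 -0.52 ± 0.74 SE, Slc3a2 by -0.39 ± 0.27, Slc7a7 by 0.03 ± 0.36 and Slc38a6 by -1.11 ± 0.37, with adjusted p-values of 0.70, 0.40, 1.0 and 0.095. Slc6a9, Slc7a3, Slc7a5, Slc7a8, Slc7a11, Slc38a2 and Slc43a2 did not pass either (adjusted p = 0.076 to 1.0). Leaving out either E9.25 library left 6 of the 16 calls, those of Slc1a1, Slc1a4, Slc3a1, Slc38a3, Slc38a9 and Slc7a6. Fitting the ysE libraries alone gave 31 calls. The summed endoderm markers were 10410 and 11590 RPKM at E9.25 and 43200 at E12.5 with every marker present. Afp held most of the E12.5 sum, at 6071 and 6628 and then 35558. Amn (174 and 249, then 115) and Cubn (336 and 429, then 183) were lower at E12.5, the other markers of the list higher. The hepatocyte markers summed to 285.3 and 343 and then 1745. Markers of endothelium and mesoderm summed to 12.7 and 22.5 RPKM at E9.25 and 7.52 at E12.5, with Kdr at 1.71 and 2.58 and then 0.051, and erythroid markers to 7.58 and 8.17 and then 1.92. The part of these cell types in the differences between the stages was not tested.

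**Figure D5:**
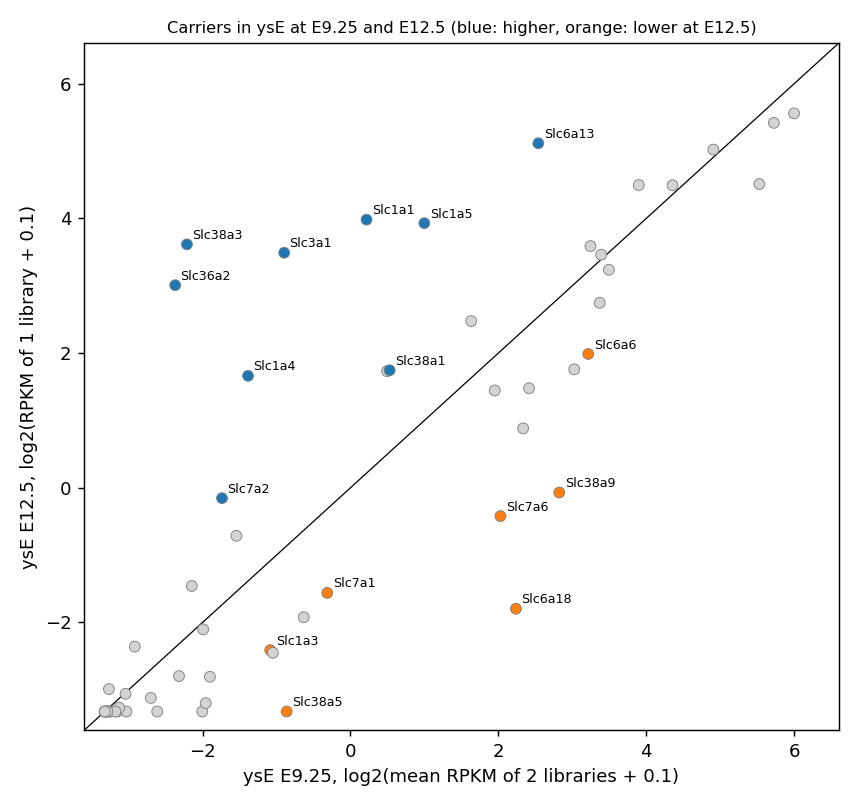
Each point is 1 of the 58 carriers, with log2(mean RPKM of 2 libraries + 0.1) in E9.25 ysE on the x axis and log2(RPKM of 1 library + 0.1) in E12.5 ysE on the y axis; the line marks equal levels, blue points the 9 carriers higher and orange points the 7 lower at E12.5. Slc38a3, Slc36a2 and Slc3a1 lie farthest above the line and Slc6a18 farthest below it among those with counts at both stages.

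E12.5 ysE was compared with E12.5 liver, a tissue derived from endoderm of the embryo itself that also held erythroid markers. The comparison called 18 carriers higher and 14 lower in ysE, beside 22.7% higher and 22.5% lower among all genes. Hepatocyte markers summed to 1745 RPKM in ysE and 508 to 1084 in liver, and the part of these cell types in the carrier differences was not tested. Medians were -0.19 for the carriers and -0.23 for all genes on the log2 scale. Slc1a1 was 111-fold higher in ysE, from 0.125 and 0.166 RPKM in liver (adjusted p = 3.4e-05 in edgeR's test), Slc6a19 71.2-fold, Slc38a3 38.02-fold, Slc7a9 36.05-fold, Slc7a7 27.0-fold and Slc3a1 16.7-fold. Slc6a18 was called 33.7-fold higher on 35 counts in ysE and 4 in liver. Slc6a9 ran the other way, at 0.043 RPKM in ysE and 6.06 and 8.31 in liver (163-fold lower in ysE, adjusted p = 1.1e-04), beside erythroid markers of 1.92 RPKM in ysE and 239 to 482.3 in liver. The arginine carrier Slc7a1 was 28.8-fold lower in ysE, Slc43a1 62.9-fold and Slc7a5 5.85-fold. Slc7a8 was 10.3-fold, Slc43a2 8.22-fold and Slc3a2 2.27-fold higher in ysE. Among the carriers called, 4 had no count in ysE and were at least 151-fold (Slc38a5), 44.0-fold (Slc1a2), 27.3-fold (Slc6a3, the dopamine carrier) and 5.04-fold (Slc6a15) lower than in liver, against the floor of 3 counts in the ysE library. The call of Slc6a15 was lost without liver replicate A (adjusted p up to 0.069). Of the 15 carriers followed, Slc1a5, Slc6a6, Slc7a3, Slc7a11 and Slc38a2 did not pass (adjusted p = 0.0995 to 0.58).

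Cystic EBs were set against both ysE stages to ask whether they carry the transport genes of yolk sac endoderm. Against E9.25 ysE, 20 carriers were higher and 18 lower in EBs, beside 26.5% and 23.5% of all genes, with medians of -0.21 for carriers and 0.17 for all genes. This comparison shares its ysE libraries with that of ysE and mesoderm. Slc6a18 was at most 0.02 RPKM in every EB library and 451-fold lower than in ysE (adjusted p = 2.0e-05 in edgeR's test), and Slc6a19 was 189-fold lower (adjusted p = 4.8e-05). Slc6a13 was 41.1-fold lower, Slc7a9 34.4-fold (log2 -5.10 ± 0.53 SE), Slc7a8 17.6-fold and Slc38a6 15.9-fold. The abundant Slc7a7 was at 13.7 and 11.04 RPKM in d10 EBs and 8.99 and 7.81 in d15 EBs, below both ysE libraries but above both mesoderm libraries, and was 3.93-fold lower than in ysE (adjusted p = 2.2e-04). Oxa1l, which overlaps Slc7a7, was at 6.36 to 11.8 RPKM in the EB libraries, and Trmt5, which overlaps Slc38a6, at 9.83 to 11.5. Their part in these values was not tested. Slc3a2 was 2.54-fold and Slc43a2 7.26-fold lower. Endoderm markers summed to 157.7 to 1293 RPKM in the EBs, and their part in these differences was not tested.

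The carriers higher in EBs than in E9.25 ysE included Slc7a1, Slc7a2, Slc7a3 and Slc7a14, 4 of 5 cationic carriers and their relatives, beside 26.5% of all genes. None of this group was lower. Slc7a14 averaged 0.0405 RPKM in EBs, with 101 of its 148 counts in d10 replicate B. Against E12.5 ysE 3 of the group were higher and Slc7a4 lower. Slc7a2 and Slc7a3 were higher than in mesoderm. Against liver Slc7a3 was higher and Slc7a1 and Slc7a2 lower. Slc7a3, an arginine and lysine carrier on chromosome X, was at 0.134 and 0.118 RPKM in ysE and at 3.48 and 24.6 in d10 and 2.81 and 9.41 in d15 EBs, 58.6-fold higher (adjusted p = 0.0015). Snx12, which overlaps it, was at 9.08 to 13.0 RPKM in EBs and highest in E12.5 ysE at 42.0 RPKM, where Slc7a3 was at 0.264. The part of Snx12 in the Slc7a3 values was not tested. The neutral amino acid carrier Slc6a15 was at 1.97 to 3.84 RPKM in EBs and at most 0.118 in all other libraries (31.1-fold, adjusted p = 5.1e-04), and the glutamate carrier Slc1a2 at 0.214 to 0.567 against at most 0.004 in E9.25 ysE (114-fold on 8 counts in ysE). Slc1a4 was 15.0-fold, Slc1a3 10.8-fold and Slc38a1 8.98-fold higher. Slc38a1, a glutamine carrier, reached 13.96 to 19.04 RPKM in EBs, the highest of any group. Slc6a11, a GABA carrier with no count in ysE, was at least 45.0-fold higher against a floor of 3 counts over both ysE libraries. Its level was 0.335 RPKM in d15 replicate A and 0.027 to 0.069 in the other EB libraries. Slc6a14, a broad carrier of neutral and cationic amino acids, was at 0.547 to 1.4 RPKM in EBs and 31.5-fold higher. Slc7a11 was 16.9-fold, Slc7a1 3.74-fold, Slc6a9 3.11-fold and Slc38a2 1.84-fold higher. The calls of Slc6a11, Slc6a14, Slc7a14, Slc38a2, Slc38a3, Slc43a1 and Slc6a8 were lost when either ysE library was left out (adjusted p up to 0.15). Of the 15 carriers followed, Slc1a5, Slc3a1, Slc6a6 and Slc7a5 did not pass (adjusted p = 0.067 to 0.83). Neural markers stood at 10.7 to 27.2 RPKM in EBs and 0.28 to 0.342 in E9.25 ysE, and pluripotency markers at 79.1 to 317.4 and 5.26 to 6.09. The neural markers Elavl3 and Dcx were at 0 in E9.25 ysE replicate A. The part of these cells in the differences was not tested.

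Against E12.5 ysE, 16 carriers were higher and 19 lower in EBs (20.4% and 18.7% of all genes), with medians of 0.85 for carriers and 0.43 for all genes. The largest differences toward ysE were those of Slc6a13 (234-fold lower in EBs), Slc36a2 (200-fold), Slc6a19 (124-fold), Slc1a1 (69.2-fold), Slc3a1 (40.9-fold, log2 -5.35 ± 0.36 SE) and Slc7a9 (23.9-fold), each with an adjusted p of at most 3.2e-04 in edgeR's test. Carriers without a count in E12.5 ysE numbered 5 among those called, and were higher in EBs by at least 151-fold (Slc6a15), 57.1-fold (Slc1a2), 45.1-fold (Slc6a14), 22.9-fold (Slc38a5) and 6.49-fold (Slc7a14) over the floor of 3 counts. The glutamate carrier Slc1a3 was 48.0-fold, Slc7a6 17.7-fold, Slc6a9 13.0-fold and Slc7a1 11.7-fold higher. The call of Slc7a14 was lost without EB d15 replicate B and under 2 other alternatives (adjusted p up to 0.097). Among the abundant carriers of ysE, Slc7a8 was 10.7-fold, Slc43a2 7.20-fold, Slc7a7 4.01-fold and Slc3a2 1.94-fold lower in EBs. Slc7a3 was 29.6-fold, Slc7a11 18.9-fold, Slc7a5 3.20-fold, Slc38a2 2.33-fold and Slc6a6 1.81-fold higher, and these 5 calls were lost when only the groups compared were fitted. Only Slc1a5 of the 15 carriers followed did not pass (log2 -1.75 ± 0.64 SE, adjusted p = 0.055).

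Compared with mesoderm, EBs had 11 carriers higher and 15 lower (13.7% and 14.9% of all genes), with equal medians of 0.02 for carriers and all genes. All 3 Slc43 members were lower in EBs, Slc43a3 by 70.1-fold (0.434 to 0.704 RPKM in EBs, adjusted p = 1.9e-06 in edgeR's test). Slc6a18 was 43.9-fold lower, Slc6a19 20.8-fold, Slc38a5 17.0-fold, Slc6a3 9.35-fold, Slc6a13 7.78-fold, Slc1a6 5.84-fold, Slc7a8 4.64-fold, Slc6a9 4.19-fold and Slc43a2 1.80-fold, the last a call lost under 3 alternatives. Erythroid markers summed to 1.52 to 3.46 RPKM in EBs against 243.8 to 259 in mesoderm, endothelium and mesoderm markers to 10.1 to 45.1 against 317.4 to 332.3, and macrophage markers to 0.70 to 6.30 against 60.9 to 61.6, with C1qa at 0 in both d10 EB libraries. Mrc1 held most of the macrophage sum in mesoderm. Csf1r did not separate the tissues, at 0.325 to 3.882 in EBs and 2.625 and 2.199 in mesoderm. The part of the cell types of these lists in the differences was not tested. Slc7a3, Slc6a15, Slc6a14, Slc1a2 and Slc38a3 were higher in EBs by 34.5-fold, 25.7-fold, 24.8-fold, 22.3-fold and 7.91-fold, and the glutamine carrier Slc38a1 by 3.25-fold. This count depended on single libraries, since without mesoderm replicate B 12 carriers were called, without mesoderm replicate A 17. Among the calls lost without replicate B were those of Slc1a2, Slc7a3, Slc6a14, Slc6a3 and Slc38a3. Slc3a2 (1.48-fold, adjusted p = 0.0498) and Slc6a8 (2.86 and 2.94 RPKM in mesoderm, 3.94 to 8.76 in EBs, adjusted p = 0.049) lay at the threshold and were lost under 7 alternatives each. Slc7a9 missed it with 4.68 and 8.16 RPKM in mesoderm (log2 -1.48 ± 0.50 SE, adjusted p = 0.051), and Slc7a7 with 5.12 and 6.84 (log2 0.66 ± 0.26 SE, adjusted p = 0.084). Slc1a5, Slc3a1, Slc6a6, Slc7a1, Slc7a5, Slc7a11 and Slc38a2 did not pass (adjusted p = 0.15 to 0.99).

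Set against liver, EBs had 14 carriers higher and 11 lower, beside 24.8% and 20.2% of all genes, with medians of 0.23 for both. Slc7a9 (log2 0.59 ± 0.54 SE, adjusted p = 0.39), Slc7a8 (-0.05 ± 0.42, adjusted p = 0.93), Slc43a2 (0.19 ± 0.25, adjusted p = 0.56) and Slc3a2 (0.23 ± 0.19, adjusted p = 0.34), all higher in E12.5 ysE than in liver, did not pass the test between EBs and liver by edgeR. Some other carriers higher in E12.5 ysE than in liver were also called higher in EBs than in liver. Of these, Slc7a7 was 6.73-fold and Slc6a8, the creatine carrier, 7.96-fold higher in EBs. Slc38a6 and Slc38a7 were among them too, with means of 3.94 and 4.71 RPKM in EBs, 1.45 and 1.86 in liver, and 22.7 and 22.5 in E12.5 ysE. Slc7a3 was 52.1-fold higher, Slc6a15 29.4-fold, and Slc6a14, with no count in liver, at least 137-fold against the floor of 3 counts over both liver libraries. Slc7a11 was 6.48-fold and Slc38a2 3.04-fold higher. Slc6a11, also with no count in liver, was at least 19.9-fold higher, a call lost without either liver library (adjusted p up to 0.11). In the other direction Slc6a3 was 38.6-fold, Slc6a13 35.8-fold, Slc43a3 35.5-fold, Slc36a2 16.7-fold, Slc6a9 12.6-fold and Slc38a5 7.52-fold lower in EBs, beside erythroid markers of 1.52 to 3.46 RPKM in EBs and 239 to 482.3 in liver. Hepatocyte markers summed to 7.01 to 66.4 in EBs and 508 to 1084 in liver. The sums of macrophage and yolk sac endoderm markers were also lower in EBs, those of neural and pluripotency markers higher. Some single markers did not follow their sums. Afp, Apoa1 and Hnf4a were lower in every EB library than in liver. Cubn (9.64 to 38.017 RPKM in EBs, 0.435 and 0.55 in liver) and Amn (1.825 to 12.396 in EBs, 0.078 and 0.07 in liver) were higher in EBs. Ttr, Apob, Csf1r and the neural markers Elavl3 and Dcx overlapped between EBs and liver. The part of these cell types in the carrier differences was not tested. Slc3a1, Slc7a1 and Slc7a5 were 2.45-fold, 2.46-fold and 1.83-fold lower in EBs, and the call of Slc3a1 was lost without liver replicate B (adjusted p = 0.0504) and that of Slc7a5 under 6 alternatives. The call of Slc6a6, the taurine carrier (1.52-fold, adjusted p = 0.0485), was lost under 8 alternatives. Slc1a5 and Slc6a19 did not pass (adjusted p = 0.89 and 0.39).

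From d10 to d15 of EB culture no carrier was called in either direction, and none of 16702 genes tested (0.0% higher and 0.0% lower). Of 48 carriers that passed the filter in the EB libraries, 1 had an unadjusted p under 0.05. It was Slc6a12, a carrier of betaine and GABA, at 0.012 and 0.01 RPKM at d10 and 1.14 and 0.113 at d15. DESeq2 called this gene and no other carrier (adjusted p = 0.028), and edgeR's adjusted p was 1.0 for each of the 14 tested among the 15 carriers followed.

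The EB clones were compared with the day as a factor. By this test 2 carriers were higher and 3 lower in clone A9 than in clone JN, beside 7.83% and 10.4% of all genes. Slc7a3 was at 3.48 (d10) and 2.81 (d15) RPKM in A9 and at 24.6 and 9.41 in JN, 4.65-fold lower in A9 (adjusted p = 0.024 in edgeR's test). Slc1a5 was at 3.0 and 2.0 RPKM in A9 and 10.5 and 7.93 in JN (3.54-fold lower, adjusted p = 0.0104), and Slc38a2, a glutamine carrier induced by amino acid shortage, at 21.8 and 19.7 and 33.98 and 37.4 (1.64-fold lower, adjusted p = 0.036). Higher in A9 were Slc6a14 (2.62-fold, adjusted p = 0.0495) and Slc6a8 (1.78-fold, adjusted p = 0.039). Among the 15 carriers followed, 11 did not pass (Slc3a1, Slc3a2, Slc6a6, Slc6a9, Slc7a1, Slc7a5, Slc7a7, Slc7a8, Slc7a9, Slc7a11 and Slc43a2, adjusted p = 0.083 to 0.96) and Slc6a19 was not tested. In each of the 5 genes called both days gave the same order of the clones. A test with the day as a factor favours such genes, so this order adds no separate evidence. The genes Slc7a3, Slc6a8 and Slc6a14 lie on chromosome X, and clone A9 is XY and clone JN XX. Of these, Slc6a8 and Slc6a14 were higher in the XY clone and Slc7a3 in the XX clone. Slc38a5, also on chromosome X, was not called. The part of the sex chromosomes in these differences was not tested, and the share of X-linked genes among all genes called was not computed. The test had 1 residual degree of freedom, and DESeq2 called 10 carriers. Pluripotency markers summed to 79.1 and 101.5 RPKM in A9 and 317.4 and 223.1 in JN, and endoderm markers to 496.8 and 1293 in A9 and 157.7 and 509.8 in JN. Not every marker followed its sum. Pou5f1 was at 53.4 and 64.6 in A9 and 76.8 and 39.1 in JN, and Amn at 3.19 and 1.83 in A9 and 5.27 and 12.4 in JN. Afp at d10 was at 25.8 in A9 and 35.1 in JN. The other markers of both lists followed their sums on both days. The part of these markers in the carrier differences was not tested.

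Other genes of amino acid metabolism were read from lists of 20 measured carriers outside these families, 24 genes of amino acid sensing to mTORC1 and 16 genes of the amino acid stress response and synthesis. In the stress list, 10 of 16 genes were higher and 5 lower in EBs than in E9.25 ysE, beside 26.5% and 23.5% of all genes, and 2 were higher and 5 lower in EBs than in liver, beside 24.8% and 20.2%. Asns, asparagine synthetase and a target of Atf4, was at 9.45 and 10.2 RPKM in E9.25 ysE, 6.11 in E12.5 ysE, 49.1 to 129 in EBs, 47.8 and 49.9 in mesoderm, and 123 and 171 in liver. It was lowest in ysE, and was lower there than in mesoderm (log2 -1.99 ± 0.40 SE, adjusted p = 0.0046). Psat1, an enzyme of serine synthesis, was at 333.7 and 369.7 RPKM in E9.25 ysE and 27.3 to 81.3 in EBs (log2 -3.16 ± 0.37 SE, EBs over ysE, adjusted p = 1.6e-04). Between the clones, 7 of the 16 genes of this list were lower in A9 and 0 higher, beside 10.4% and 7.83% of all genes, among them Asns (log2 -0.76 ± 0.16 SE, adjusted p = 0.0397) and Phgdh, the first enzyme of serine synthesis, at 3.94 and 2.48 RPKM in A9 and 67.7 and 63.0 in JN. Among the 20 other carriers, of which 19 were tested, 12 were lower and 5 higher in EBs than in E9.25 ysE, beside 23.5% and 26.5% of all genes. In E9.25 ysE 7 of the 19 were higher and 2 lower than in mesoderm (13.7% and 16.2% of all genes), among the higher the peptide carrier Slc15a1 (log2 3.50 ± 0.87 SE, adjusted p = 0.013). Of the 24 genes of the sensing list, 7 were higher and 4 lower in E9.25 ysE than in mesoderm (13.7% and 16.2% of all genes), and 11 were higher and 1 lower in EBs than in liver (24.8% and 20.2% of all genes). Set against the ysE of E9.25, EBs had 3 of these genes higher with 5 lower, and against the later stage 4 higher with 5 lower (20.4% and 18.7% of all genes).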

How the data were processed

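RNA was sequenced from 11 libraries, and per the labels the reads were aligned by the authors with GSNAP to mm10. The authors deposited raw counts per RefSeq transcript and RPKM values, CpG methylation in percent with the reads behind each value, and H3K4me3 peaks whose deposited score is the MACS 1.4.2 significance. Whether counting used strand in the libraries other than E12.5 ysE, which has no strand information, is not given in the sources used here. The same holds for how reads shared by transcripts were treated. Levels were read from RPKM; a comparison of levels between libraries carries the library size of the authors' table.

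Counts of all transcripts were tested with edgeR 4.0.16 in R 4.3.3 (quasi-likelihood test, TMM scaling with factors of 0.766 to 1.21, filterByExpr, Benjamini-Hochberg adjustment over all transcripts, false discovery rate of 5%), in 1 fit over 5 groups. The days and the clones of the EBs were fitted on the 4 EB libraries, the clones with the day as a factor and the days without a block. DESeq2 1.42.0 was an alternative. Promoter methylation was the share of methylated reads within 1 kb of the start over at least 5 reads. Where a group had 0 counts, the fold was computed against a floor of 3 counts from summed counts, without TMM.

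The genes, lists, markers and tests were chosen with earlier results of these data known. Named were 15 set carriers, by value or as not passing the test, and up to 6 called carriers a direction with the largest fold change whose libraries did not overlap; other carriers with values were named after their values were seen. Same-lettered EB libraries of d10 and d15 share an ES cell clone, and their deviations correlated at 0.64 across transcripts. No source used here says that the letter marks a shared litter or batch in other groups, where correlations ran from -0.086 to 0.17. Exon counts and repeat counts were not used. Results of some genes are not reported here.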

Additional observations from a re-analysis of the deposited data

Results flagged for a closer look

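In 7 of 55 carriers 1 of the 4 cystic EB libraries lay far from the other EB libraries in RPKM by Dixon's criterion, where chance flags about 1 in 20. That rate holds for 4 exchangeable values, while these libraries differ in clone, day and protocol. The share over all genes was not computed, so the count is no trait of the carriers. The d15 replicate A library was apart for Slc6a2 (0.46, others 0.024 to 0.084), Slc6a11 (0.335, others 0.027 to 0.069), Slc6a12 (1.14, others 0.01 to 0.113) and Slc7a15 (0.036, others 0.011 to 0.012). The taurine carrier Slc6a6 was at 12.04 in d10 replicate A and at 7.95 to 8.02 in the others. Slc1a6 was at 0.876 in d15 replicate B (others 0.324 to 0.378) and Slc7a14 at 0.099 in d10 replicate B (others 0.018 to 0.025). Besides Slc6a6 and Slc6a12, these levels were all under 1 RPKM, and Slc7a15 rested on 1 to 3 counts a library.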

How the results depend on the processing

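Carriers called in EBs against mesoderm numbered 26, and 12 to 29 when 1 library was left out. Carriers called between the ysE stages numbered 16, and 7 at a false discovery rate of 1%, 31 when only the ysE libraries were fitted and 6 to 6 with 1 E9.25 library left out. Between the EB clones 5 carriers were called, 10 by DESeq2, 0 at 1% and 3 without a factor for day; between the days 0 by edgeR and 1 by DESeq2. Leaving out 1 library gave 23 to 25 calls for ysE against mesoderm, 26 to 38 for EBs against E9.25 ysE, 19 to 27 against liver, 35 to 37 against E12.5 ysE and 27 to 29 for E12.5 ysE against liver. With the replicate letter as a block, ysE against mesoderm gave 30 calls, EBs 39 against E9.25 ysE, 27 against mesoderm and 24 against liver, and the days, which the clone pairs, 0. The median methylation of carrier promoters was 27.1% in ysE with at least 1 read. With at least 20 reads it was 4.12% in ysE (6 and 3 carriers in the 2 libraries), 74.7% in liver (3 and 8) and 78.8% in EBs (6 and 5). The liver libraries then lay far apart, at 90.6% and 58.9%. Within 500 bases it was 16.9%, 16.5% and 54.0%. Over promoters read in all 6 libraries, a choice made after seeing the data, it was 62.8% in liver and 80.3% in EBs. Causes were not tested. Alternatives for named carriers were counted only for the 129 results that the main test had called, not for those that did not pass. Of these 1211 alternatives, 1126 kept direction and side of the threshold, 85 only the direction, and 0 reversed. In 37 of the 129 results at least 1 alternative lost the call. The E12.5 ysE library has no replicate and cannot be left out, few reads limit single promoters, and the clone comparison cannot lose a library.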
